A study of Mus musculus with 6 samples.

Results

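The chymases, their nearest granule relatives and the carboxypeptidase of mouse mast cells were followed across 6 cultures of bone marrow-derived mast cells (BMMCs). The members are Cma1, Mcpt1, Mcpt2, Mcpt4, Mcpt8, Mcpt9, Ctsg and Cpa3, taken by gene name from the array annotation, 8 of the 29590 genes on the array. Each member was read by 1 probe of 60 bases in 1 spot, and all 8 were well above background on all 6 arrays with no saturated spot. Mast cells were grown from bone marrow for 4 to 6 weeks in interleukin-3 (10 ng/ml), and per the labels over 97% of them carried c-Kit and the IgE receptor. Total RNA pooled from 3 samples was hybridised to 1 single-colour Agilent array per group, so no group has a replicate and no difference has a p-value. Precision is limited by the number of arrays. The groups were Pla2g3+/+ BMMCs and BMMCs labelled Pla2g3-/-, both without fibroblasts, both again after 4 days on wild-type Swiss 3T3 fibroblasts, and wild-type BMMCs after 4 days on Lpar1+/+ or on Lpar1-/- Swiss 3T3 fibroblasts.

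Swiss 3T3 is an established line of mouse embryo fibroblasts, and the Lpar1-/- line was derived from it by CRISPR/Cas9 with a guide near exon 3 of Lpar1 followed by single-cell cloning, so its effect cannot be told apart from that of 1 clone. All cocultures received stem cell factor (100 ng/ml). Whether stem cell factor was also given to the cultures without fibroblasts is not stated in the labels. The Pla2g3 product is a phospholipase A2 that cells secrete, and lysophosphatidic acid is the ligand of the Lpar1 receptor. The question, from the series title, is how mast cell maturation depends on lipid signals between both cell types. The Pla2g3 probe read against its label: on the log2 scale it stood at 0.51 under the Pla2g3-/- label and at -6.31 in Pla2g3+/+ cells without fibroblasts, at -1.84 and -7.31 in coculture, and with wild-type mast cells at -6.58 on Lpar1+/+ and -4.85 on Lpar1-/- fibroblasts. The labels do not say which exons the allele lacks, and a probe outside them would check nothing. Every direction given for that label therefore rests on the label alone, and those arrays are named as labelled Pla2g3-/-. Lpar1 read -2.84 and -2.85 without fibroblasts and -4.34 to -3.58 in coculture, with -4.14 on Lpar1+/+ and -3.89 on Lpar1-/- fibroblasts, so its level was highest where no fibroblasts were present and does not check the fibroblast genotype.

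Mast cell chymases are chymotrypsin-like serine proteases that are stored as active enzymes in secretory granules, bound to the sulfated chains of the proteoglycan serglycin. In the mouse, Mcpt1 and Mcpt2 are the chymases of mucosal mast cells, known from the gut epithelium, while Mcpt4, Cma1 (also called Mcpt5) and the metallocarboxypeptidase Cpa3 are typical of connective tissue mast cells. Cathepsin G (Ctsg) is also a protease of neutrophil granules, Mcpt8 is known as a basophil protease, and Mcpt9 has been described in mast cells of the uterus. The precursors of the serine proteases are activated by removal of a dipeptide by cathepsin C, and in culture Mcpt1 is known to be induced by transforming growth factor beta.

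Values are log2 of the processed intensity minus the array's 75th percentile, which lay between 1230.38 and 1519.97, with 70.7% to 80.4% of 43020 noncontrol spots well above background. The error that the scanner software assigns to a spot was 0.14 on this scale for most members, which leaves out the spread between cultures. The second measure of error was the pair of wild-type cocultures, Pla2g3+/+ BMMCs on wild-type fibroblasts and wild-type BMMCs on Lpar1+/+ fibroblasts. Over 21930 genes well above background on both arrays, 95% of the differences between them lay within 0.54 (SD 0.26). Genes at least 2-fold apart were counted as higher or lower. The mast cell markers Kit, Fcer1a and Ms4a2 ranged from 6.49 to 6.97, from 6.45 to 6.78 and from 3.23 to 3.66 over the 6 arrays, so the labelled cell type was borne out on each array. They belong to a list of 12 mast cell genes, all well above background on every array. Of the others, Mitf (3.99 to 4.33) and Il1rl1 (6.89 to 7.21) were as steady. Hdc (-0.97 to 2.75), Hpgds (0.45 to 2.06), Tpsb2 (2.74 to 5.71) and Tpsab1 (-5.18 to 4.39) were not, so the list as a whole was not constant. Slide 1 held the arrays without fibroblasts and slide 2 the cocultures, and these effects cannot be told apart, while both comparisons of genotype in coculture lay within slide 2. The wild-type pair also lay on slide 2, so 0.54 leaves out any spread between slides where cocultures are set against cells alone. It comes from 1 pair and pools bright and dim genes. Dim spots had larger scanner errors, up to 0.27 for Mcpt1 and 0.24 for Mcpt9.

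Upstream sequences are shown for 4 members because Mcpt1 and Mcpt4 have the most alike upstream regions of the family and yet differed in opposite directions between the cocultures, whereas Cpa3 shares their motifs and moved little, and Mcpt8 has none of them. Each is the 250 bases before the RefSeq start on GRCm38.p6, which matched 7 of the 8 members (no entry for Mcpt2), with GATAA, the core of the site of GATA factors, and TATAAA, the core of the TATA box, in capitals on either strand. The stretches are chr14:56017714-56017963 on the plus strand (Mcpt1), and chr14:56062311-56062560 (Mcpt4), chr3:20242182-20242431 (Cpa3) and chr14:56085198-56085447 (Mcpt8) on the minus strand.
Mcpt1: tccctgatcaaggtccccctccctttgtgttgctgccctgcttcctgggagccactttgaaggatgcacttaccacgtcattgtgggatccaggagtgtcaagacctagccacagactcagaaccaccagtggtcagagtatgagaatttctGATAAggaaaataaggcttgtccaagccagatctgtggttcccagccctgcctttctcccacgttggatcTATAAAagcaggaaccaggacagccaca
Mcpt4: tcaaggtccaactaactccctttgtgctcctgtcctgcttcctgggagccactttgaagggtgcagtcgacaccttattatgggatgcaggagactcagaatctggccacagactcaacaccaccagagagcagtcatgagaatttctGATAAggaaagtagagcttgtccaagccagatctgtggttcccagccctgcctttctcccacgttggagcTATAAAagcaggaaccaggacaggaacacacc
Cpa3: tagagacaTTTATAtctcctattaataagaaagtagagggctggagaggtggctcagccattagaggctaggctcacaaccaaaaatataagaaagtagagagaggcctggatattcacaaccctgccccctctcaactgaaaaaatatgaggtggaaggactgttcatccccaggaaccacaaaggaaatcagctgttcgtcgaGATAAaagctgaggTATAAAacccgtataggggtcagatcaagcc
Mcpt8: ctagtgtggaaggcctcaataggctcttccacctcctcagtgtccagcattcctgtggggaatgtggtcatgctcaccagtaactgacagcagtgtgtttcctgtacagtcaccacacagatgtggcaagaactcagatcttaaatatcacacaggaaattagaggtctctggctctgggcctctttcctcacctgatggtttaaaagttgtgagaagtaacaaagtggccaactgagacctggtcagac

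The Mcpt1 and Mcpt4 stretches were identical at 207 of 254 aligned positions (81.5%), with a longest shared run of 53 bases. The other 20 pairs among the 7 members had 44.2% to 51.5% identity, with a median of 46.7%. GATAA began at position -98 from the start of Mcpt1, -102 of Mcpt4 and -45 of Cpa3, and at -194 of Cma1 on the opposite strand. It was present in 4 of 7 members and in 23.0% of all 27025 promoter stretches of the same length. TATAAA began at -28 in Mcpt1, -32 in Mcpt4 and -31 in Cpa3, and on the opposite strand at -242 in Cpa3 and -237 in Ctsg, again in 4 of 7 members and in 13.0% of all stretches. The E-box CATGTG occurred in 1 member, Ctsg, at -77 on the opposite strand (12.2% of all stretches), and CACGTG in 0 of 7 (6.05%). Both strands were searched, and a match describes these letters only. Mcpt1 and Mcpt4 thus carry GATAA and TATAAA within a few bases of the same distance from their starts.

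Mcpt1, the mucosal chymase, was the most changeable member. Its log2 value was -7.17 in Pla2g3+/+ cells and -7.48 in cells labelled Pla2g3-/- without fibroblasts, -2.85 and -3.23 on the wild-type coculture arrays (Pla2g3+/+ BMMCs first), 1.02 in the coculture labelled Pla2g3-/- and 1.53 on Lpar1-/- fibroblasts. In order of value the 6 arrays fall into 3 steps. The lowest is without fibroblasts, the next the wild-type cocultures, and the highest the cocultures labelled Pla2g3-/- or with Lpar1-/- fibroblasts. These steps were drawn from the values themselves, and the highest joins different conditions. The share of all genes with such steps is not given. The order within each step was not resolved, since the steps' own gaps (0.31, 0.39 and 0.51) lay inside 0.54. Intensities were 8.79 and 6.88 without fibroblasts and 204.3 and 161.8 in the wild-type cocultures. They were 2522.9 and 4207.4 in the last pair. After scaling to each array's 75th percentile the whole range spanned 516-fold. Spots as dim as those without fibroblasts carried a scanner error of 0.24 and 0.27.

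Mcpt2, the other mucosal chymase, followed the same order at a brighter level. It read -0.36 and -0.94 without fibroblasts, 2.11 and 2.02 in the wild-type cocultures, 3.78 in the coculture labelled Pla2g3-/- and 4.07 on Lpar1-/- fibroblasts. The same 3 steps appeared over a 32.2-fold range. The gap between the arrays without fibroblasts (0.58) was just outside the wild-type spread, and the gap between the highest pair (0.29) inside it. The Mcpt1 and Mcpt2 probes matched at no more than 25 of 60 bases, as did every pair of member probes, and their longest shared run was 10 bases.

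**Figure D1:**
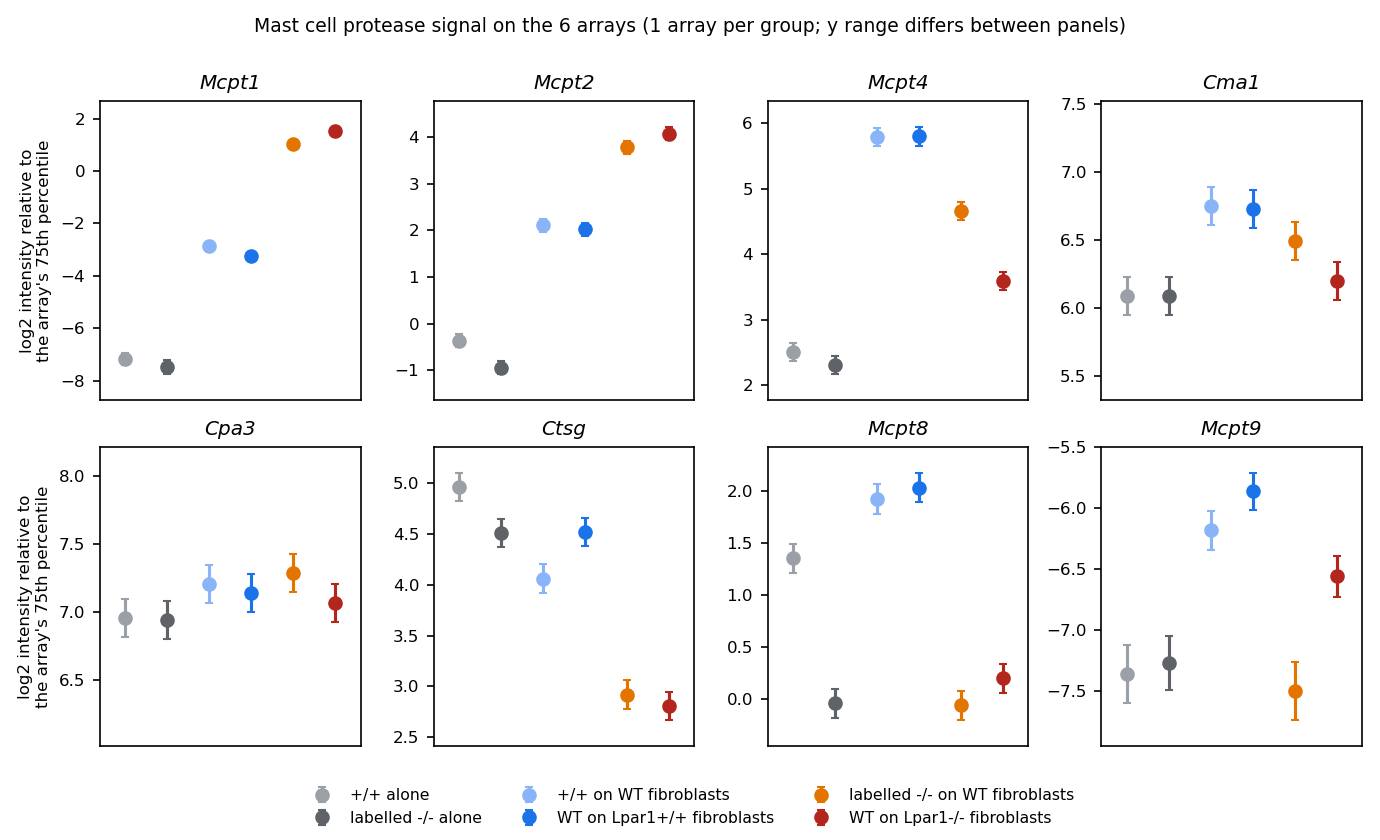
Log2 intensity of each member relative to the array's 75th percentile (y axis; the range differs between panels) on the 6 arrays, 1 point per array, with bars for the scanner software's error. Mcpt1 and Mcpt2 step up from the grey arrays without fibroblasts to the blue wild-type cocultures and again to the orange and red cocultures, Mcpt4 peaks in the blue pair (5.79 and 5.80), and Cpa3 stays between 6.94 and 7.29.

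Mcpt4, the chymase of connective tissue mast cells, peaked in the wild-type cocultures. It read 2.51 and 2.31 without fibroblasts, 5.79 and 5.80 in the wild-type cocultures, 4.66 in the coculture labelled Pla2g3-/- and 3.59 on Lpar1-/- fibroblasts. Every coculture was above both arrays without fibroblasts, and the last 2 values were each separated from their neighbours in the order by more than 0.54. The range was 11.3-fold after scaling to the 75th percentile, and the unscaled intensities ran from 6096.2 to 84728.2.

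Cma1, the other chymase of connective tissue mast cells, kept the order of Mcpt4 over a far smaller range. It read 6.09 on both arrays without fibroblasts, 6.75 and 6.73 in the wild-type cocultures, 6.49 in the coculture labelled Pla2g3-/- and 6.20 on Lpar1-/- fibroblasts. The whole range was 1.58-fold, and no neighbours in this order were more than 0.54 apart. Cpa3, the carboxypeptidase stored with it, read 6.96 and 6.94 without fibroblasts, 7.21 and 7.14 in the wild-type cocultures, 7.29 in the coculture labelled Pla2g3-/- and 7.07 on Lpar1-/- fibroblasts. Its 1.28-fold range lay inside the wild-type spread, so no order of the arrays is given for it.

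Ctsg, cathepsin G, went the other way. It read 4.96 and 4.51 without fibroblasts, 4.06 and 4.52 in the wild-type cocultures, 2.92 in the coculture labelled Pla2g3-/- and 2.81 on Lpar1-/- fibroblasts. The last 2 arrays were below the other 4, while the wild-type cocultures overlapped the arrays without fibroblasts. Ctsg was the member with the widest gap (0.46) between the wild-type cocultures. Markers of neutrophils, which also make cathepsin G, differed between the arrays too. The summed level of 15 neutrophil markers, in units of the array's 75th percentile, was 46.3 and 6.59 without fibroblasts, 7.67 and 7.61 in the wild-type cocultures, 6.46 in the coculture labelled Pla2g3-/- and 18.3 on Lpar1-/- fibroblasts. S100a9 was the largest part of the 46.3 and Ly6g of the 6.46. Over the arrays S100a9 ran from -0.73 to 4.65 and Ly6g from 1.27 to 2.06. Of the 15, 0 to 2 were not well above background on an array, and Elane, Mpo and Prtn3 were well above it on all 6. In coculture, where Ctsg differed by -0.90, -1.59 and -2.16, the markers were lower for 12 of 15 in Pla2g3+/+ cells (median -2.49), 6 of 13 under the Pla2g3-/- label (median -0.94) and 11 of 15 on Lpar1-/- fibroblasts (median -1.60), with 0, 1 and 0 higher. Of all genes, 7.52%, 7.3% and 7.18% were lower in these cocultures and 12.8%, 11.4% and 13.0% higher. Under the Pla2g3-/- label in coculture 6 of 14 markers were lower and 1 higher (median -0.76), against 10.4% and 9.1% of all genes. Ctsg differed there by -1.14. Between the arrays without fibroblasts 12 of 14 measured neutrophil markers were lower under the Pla2g3-/- label (median -3.26), against 1.58% of all genes. Ctsg differed there by -0.45. Between fibroblast genotypes 9 of 15 markers were higher and 0 lower on Lpar1-/- fibroblasts (median 1.28), against 11.3% and 8.82% of all genes. Ctsg was 3.26-fold lower there. The markers thus differed in the direction of Ctsg in some comparisons and in the other in the last, and the part of neutrophil RNA in Ctsg was not tested.

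Mcpt8 separated the arrays in another way. It read 1.35 in Pla2g3+/+ and -0.04 in Pla2g3-/- labelled cells without fibroblasts, 1.92 and 2.03 in the wild-type cocultures, -0.06 in the coculture labelled Pla2g3-/- and 0.20 on Lpar1-/- fibroblasts. Both arrays labelled Pla2g3-/- and that with Lpar1-/- fibroblasts were low and within 0.54 of each other, and the other 3 arrays were high. Mcpt8 was the 1 member that differed at least 2-fold by the Pla2g3 label without fibroblasts. Of the 4 basophil markers (Prss34, Cd200r3, Itga2 and Cebpa), the summed level was 14.7 and 17.0 without fibroblasts, 18.4 and 18.3 in the wild-type cocultures, 16.5 in the coculture labelled Pla2g3-/- and 13.7 on Lpar1-/- fibroblasts, with 0 or 1 of them not well above background. Nearly all of this sum was Cd200r3, which read from 3.76 to 4.19. Prss34, a serine protease of basophils and some mast cells, read -2.77, -5.41, -3.95, -3.62, -5.10 and -2.45 on the same arrays, so on Lpar1-/- fibroblasts it was high and Mcpt8 low. Without fibroblasts, by contrast, Prss34 (6.22-fold), Cebpa (2.86-fold) and Mcpt8 (2.61-fold) were all lower under the Pla2g3-/- label, while Cd200r3 differed by 0.23. On Lpar1-/- against Lpar1+/+ fibroblasts Cebpa and Prss34 were higher, by 1.51 and 1.17. Eosinophil markers also differed by the label without fibroblasts: 6 of 9 were lower and 0 higher, against 1.58% and 0.372% of all genes. Their summed level was 2.24 in Pla2g3+/+ and 0.388 in Pla2g3-/- labelled cells, against 1.04 to 1.11 in the cocultures. From 0 to 5 were not well above background on an array. Il5ra was the largest part of the coculture sums. In coculture of Pla2g3+/+ cells it was 9.11-fold higher, while the granule gene Prg2 was 251-fold lower. The part of basophil or eosinophil RNA in these values was not tested.

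Mcpt9 was barely above background, and which transcript its probe reads was not identified. It read -7.36 and -7.27 without fibroblasts, -6.18 and -5.86 in the wild-type cocultures, -7.50 in the coculture labelled Pla2g3-/- and -6.56 on Lpar1-/- fibroblasts, from intensities of only 6.87 to 26.3. The wild-type cocultures were highest, and the Lpar1-/- array lay between them and the other 3. The probe's 60 bases matched 56 of 60 bases of the Mcpt4 start region, from -42 to 17 of its RefSeq start, and 44 of 60 of the Mcpt1 start region. Among all 27025 start windows these were the only 2 with over 40 matches (median 25). The array annotation places the probe at base 1149 of the Mcpt9 mRNA, the only RefSeq mRNA listed for it. The Mcpt9 start window does not reach that base, so its best fit of 23 says nothing about the name. The first 30 bases, with the TATAAA letters within them, were identical at 30 of 30 positions to the Mcpt4 stretch from -42 to -13 shown above and are given as evidence of that overlap.
Mcpt9 probe, bases 1 to 30: acgttggagctataaaagcaggaaccagga

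The Mcpt9 values are therefore given by the array's name for the probe, and the transcript behind them was not identified here. With normexp background correction, a model-based subtraction, its differences in the 2 cocultures of Pla2g3+/+ or wild-type cells against cells alone and in both genotype comparisons in coculture were 0.05, -0.02, 0.01 and -0.16, in place of 1.17, 0.79, -1.32 and -0.71, so its calls are lost there.

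On mm9, the build of the array files, 7 of the members lie in 1 cluster on chromosome 14 whose probes span 157.4 kb, and Cpa3 lies on chromosome 3 at 20115674 to 20115733. The probes are those of Cma1 (56561491 to 56562550, a span of 1060 bases that crosses introns), Mcpt1 (56638928 to 56638987), Mcpt9 (56648124 to 56648183), Mcpt2 (56663261 to 56663320), Mcpt4 (56678589 to 56678648), Mcpt8 (56702300 to 56702674, a span of 375 bases) and Ctsg (56718795 to 56718854). Mcpt1 and Mcpt2 lie on the plus strand and the other members of the cluster on the minus strand. Exons and untranslated regions of mm9 were not annotated here. The file places 4 more probes in this interval. Cma2, a chymase gene 31.2 kb from the Cma1 probe, was the most like Mcpt4: it read 0.83 and 0.84 without fibroblasts, 4.58 on both wild-type coculture arrays, 2.02 in the coculture labelled Pla2g3-/- and 1.20 on Lpar1-/- fibroblasts. The file lists the Mcpt4 mRNA among the 3 RefSeq mRNAs for the Cma2 probe, so its identity is uncertain. Mcpt-ps1, a chymase pseudogene whose probe shares a run of 27 bases with the Mcpt4 probe, read 2.19 and 2.13, 4.27 and 3.96, 4.56 and 3.11 in the same order, highest under the Pla2g3-/- label in coculture. The probes without a gene name, 9.0 kb and 47.2 kb from the Cma1 probe, read -1.79, -2.23, 1.59, 1.49, 2.10 and 2.50 for the first and 6.03, 5.99, 7.01, 7.05, 6.85 and 6.50 for the second. The first was highest on the last 2 arrays, as was Mcpt2, and the second had the order of Cma1.

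**Figure D2:**
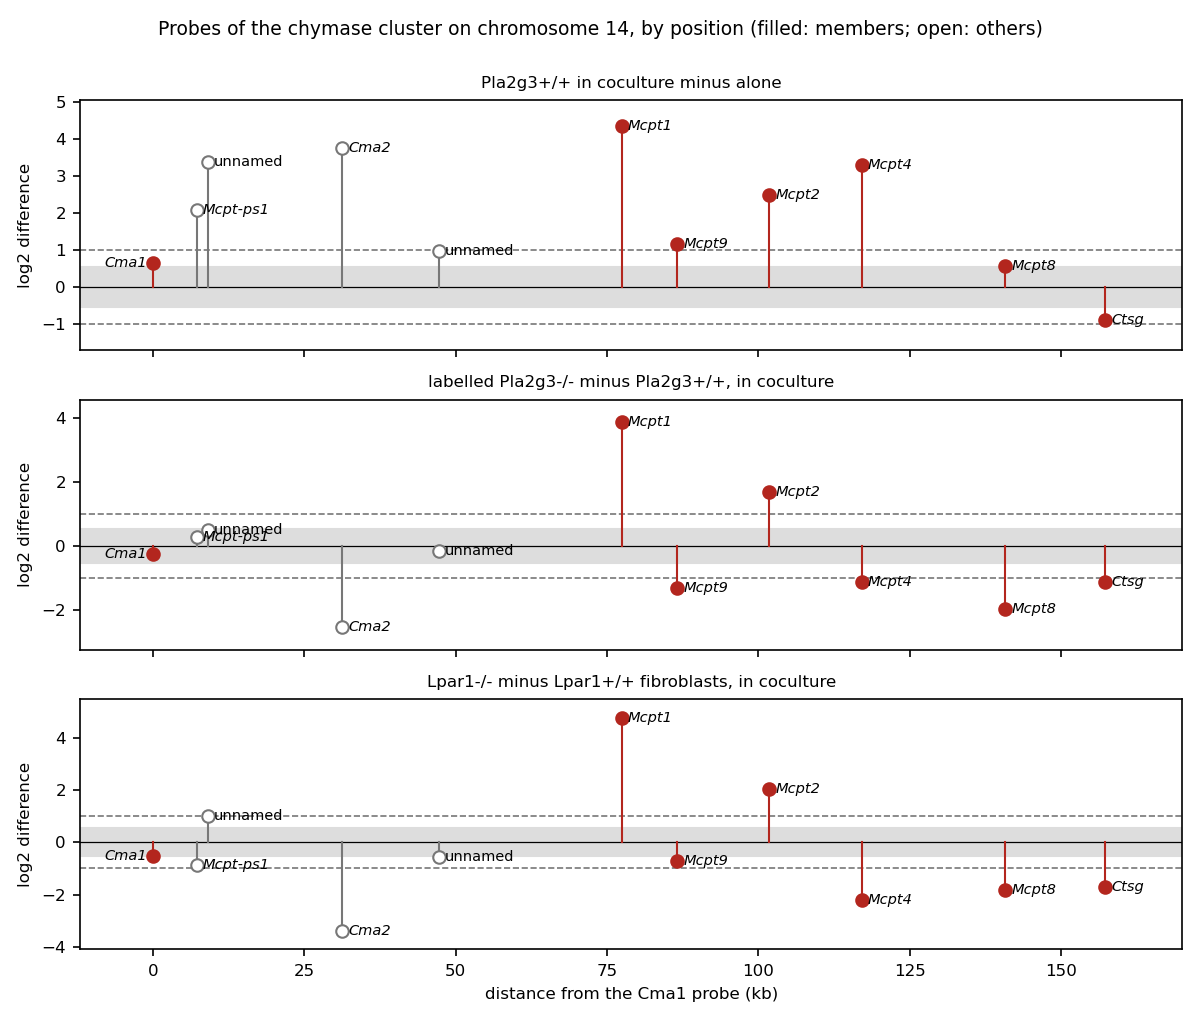
Log2 differences (y axis) of the 11 probes of the chymase cluster against their distance from the Cma1 probe in kb (x axis), for coculture of Pla2g3+/+ cells, the Pla2g3 label in coculture and fibroblast Lpar1; filled points are members, the grey band is 0.54 either side of 0 and dashed lines mark 2-fold. Mcpt1 and Mcpt2 point up in both genotype panels (3.87 and 1.67, 4.76 and 2.05), while Mcpt4, Mcpt8, Ctsg and the uncertain Mcpt9 probe point down.

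Beyond Ctsg lie granzyme genes, which encode related serine proteases of lymphocyte and mast cell granules. Of the list of 9 further genes of this cluster, 5 were measured, and 4 of the 5 were lower in each of the genotype comparisons in coculture, against 10.4% of all genes under the label and 8.82% by fibroblast Lpar1, with medians of -1.77 and -3.38. Under the Pla2g3-/- label Gzme was 3.67-fold, Gzmd 3.40-fold and Gzmb 2.01-fold lower. On Lpar1-/- fibroblasts Gzme was 15.8-fold, Gzmd at least 14.5-fold and Gzmb 2.08-fold lower, with Gzmd not well above background there. The fourth was Cma2, and Gzmc stayed within 2-fold in both. Gzmd and Gzme are close relatives that a probe may share.

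Coculture of Pla2g3+/+ cells on wild-type fibroblasts was accompanied by higher signal of both mucosal chymases and of Mcpt4, while Cma1 stayed within 2-fold. Mcpt1 was 20.1-fold, Mcpt4 9.68-fold, Mcpt2 5.56-fold and Mcpt9 2.25-fold higher than in Pla2g3+/+ cells alone. Cma1 (0.65 ± 0.20 scanner error), Mcpt8 (0.57), Cpa3 (0.25) and Ctsg (-0.90) stayed within 2-fold. Thus 4 of 8 members were higher and 0 lower, against 12.8% and 7.52% of 22615 genes, and the median difference of the members was 0.91 against 0.13 for all genes. With the other wild-type coculture array Mcpt1 differed by 3.94, Mcpt9 by 1.50 and Ctsg by -0.45. With normexp Mcpt1 differed by 1.63 in place of 4.33, still past 2-fold, and Mcpt9 by 0.05. Fibroblast RNA moved with coculture: the summed level of 15 fibroblast markers was 0.384 and 0.188 without fibroblasts, 35.3 and 36.6 in the wild-type cocultures, 15.2 in the coculture labelled Pla2g3-/- and 32.4 on Lpar1-/- fibroblasts. From 8 of the 15 on each array without fibroblasts to 1 to 3 in the cocultures were not well above background, Lum on all 6 arrays, and their part in the coculture differences was not tested. Sparc (3.77, 3.77, 2.69 and 3.31) was the largest part of each coculture sum. Thy1 went the other way in most cocultures. It read -2.36 and -4.76 without fibroblasts, -7.71 and -6.85 in the wild-type cocultures and -9.2 in that labelled Pla2g3-/-. On Lpar1-/- fibroblasts it read 0.76, and Postn read -4.24 there against -8.23 on Lpar1+/+ fibroblasts. Similar sums thus do not make both fibroblast lines alike. In such bulk RNA, fewer cells of a type and less RNA per cell cannot be told apart.

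In cells labelled Pla2g3-/-, coculture went with still higher mucosal chymases. Mcpt1 was 363-fold, Mcpt2 26.5-fold and Mcpt4 5.09-fold higher, and Ctsg was 3.01-fold lower. Cma1 (0.40), Cpa3 (0.35), Mcpt8 (-0.02) and Mcpt9 (-0.23) stayed within 2-fold. The count was 3 higher and 1 lower of 8, against 11.4% and 7.3% of 22349 genes, with a median of 0.38 against 0.12. With normexp the Mcpt1 difference was 5.19 in place of 8.50.

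On Lpar1-/- fibroblasts, set against the same Pla2g3+/+ cells alone as in the first comparison, Mcpt1 was 416-fold, Mcpt2 21.5-fold and Mcpt4 2.11-fold higher. Ctsg was 4.46-fold and Mcpt8 2.21-fold lower. Mcpt9 (0.79), Cpa3 (0.11) and Cma1 (0.10) stayed within 2-fold. This made 3 higher and 2 lower of 8, against 13.0% and 7.18% of 23725 genes, with a median of 0.45 against 0.14. Scaled to the array median, Mcpt4 differed by 0.66 and was no longer past 2-fold, and with normexp Mcpt1 differed by 5.70 in place of 8.70. Over the 3 coculture comparisons the Mcpt4 difference was 3.28, 2.35 and 1.07, while that of Mcpt1 was 4.33, 8.50 and 8.70.

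**Figure D3:**
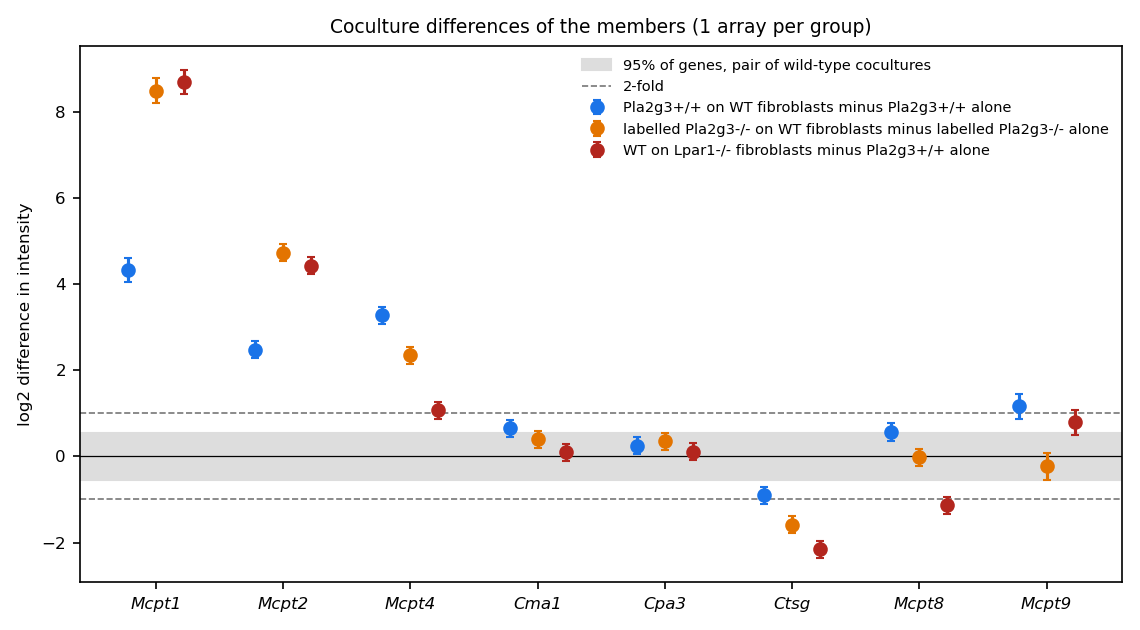
Log2 difference between each coculture and the matching culture without fibroblasts (y axis) for the 8 members (x axis), with bars for the scanner error, a grey band of 0.54 either side of 0 and dashed lines at 2-fold. Mcpt1 and Mcpt2 sit highest in the orange and red comparisons (8.50 and 8.70, 4.73 and 4.43), Mcpt4 in the blue one (3.28), and Cma1 and Cpa3 lie within 2-fold in all 3; the blue and red comparisons share their array without fibroblasts.

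Without fibroblasts the members hardly differed by the Pla2g3 label. Mcpt8 was 2.61-fold lower, which made 1 lower and 0 higher of 8, against 1.58% and 0.372% of 21752 genes. The other differences were -0.58 for Mcpt2, -0.45 for Ctsg, -0.31 for Mcpt1, -0.20 for Mcpt4, 0.09 for Mcpt9, -0.03 for Cpa3 and -0.01 for Cma1. Of these, Mcpt2 alone lay outside 0.54. The median of the members was -0.26 and that of all genes 0.00.

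In coculture, by the same label, both mucosal chymases were higher and 4 other members lower. Higher under the Pla2g3-/- label were Mcpt1 (14.6-fold) and Mcpt2 (3.18-fold), whereas Mcpt8 was 3.94-fold, Mcpt9 2.49-fold, Ctsg 2.20-fold and Mcpt4 2.19-fold lower. Cma1 (-0.26) and Cpa3 (0.07) differed by less than the wild-type spread. So 2 members were higher and 4 lower of 8, against 9.1% and 10.4% of 22505 genes, with a median of -0.70 against -0.08. The ratio of Mcpt1 to Mcpt4 differed by 32.0-fold between these arrays, that of Mcpt2 to Mcpt4 by 6.97-fold, and that of Mcpt2 to Cma1, the other connective tissue chymase, by 3.82-fold, and no scaling of whole arrays alters these. With the other wild-type array Mcpt1 differed by 4.25, Ctsg by -1.59 and Mcpt9 by -1.64. Macrophage markers differed by genotype in coculture as well. Their summed level was 3.44 and 2.65 without fibroblasts, 10.2 and 9.98 in the wild-type cocultures, 3.09 in the coculture labelled Pla2g3-/- and 1.89 on Lpar1-/- fibroblasts, with 0 to 3 of 11 not well above background. Cd68 was the largest part of each sum. Under the Pla2g3-/- label 5 of 10 were lower and 0 higher, against 10.4% and 9.1% of all genes. On Lpar1-/- fibroblasts the counts were 5 of 11 and 0, against 8.82% and 11.3%. Among the lower markers Mrc1, the mannose receptor, read -2.37 on both wild-type coculture arrays and -9.21 and -7.60 on the other coculture arrays, and Cd68 3.13, 3.12, 1.24 and 0.08. In these comparisons Adgre1 differed by 0.15 and 0.05 and C1qb by 0.04 and 0.15. In coculture of Pla2g3+/+ cells Adgre1 was 5.44-fold lower. Markers of natural killer and T cells summed to between 1.68 and 2.35 on all arrays, with Klrk1 and Klrb1c not well above background on any. The part of macrophage RNA in the members' differences was not tested.

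The comparison by fibroblast Lpar1 used another pair of arrays. Higher on Lpar1-/- fibroblasts were Mcpt1 (27.1-fold) and Mcpt2 (4.15-fold), whereas Mcpt4 was 4.64-fold, Mcpt8 3.55-fold and Ctsg 3.26-fold lower than on Lpar1+/+ fibroblasts. Mcpt9 (-0.71), Cma1 (-0.53) and Cpa3 (-0.07) stayed within 2-fold, the last 2 inside the wild-type spread. The count was 2 higher and 3 lower of 8, against 11.3% and 8.82% of 24545 genes, and the median was -0.62 against -0.05. The ratios to Mcpt4 differed by 126-fold for Mcpt1 and 19.2-fold for Mcpt2, and that of Mcpt2 to Cma1 by 6.0-fold. In both comparisons the larger difference of the mucosal pair was that of Mcpt1, by 4.59-fold and 6.54-fold over Mcpt2.

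**Figure D4:**
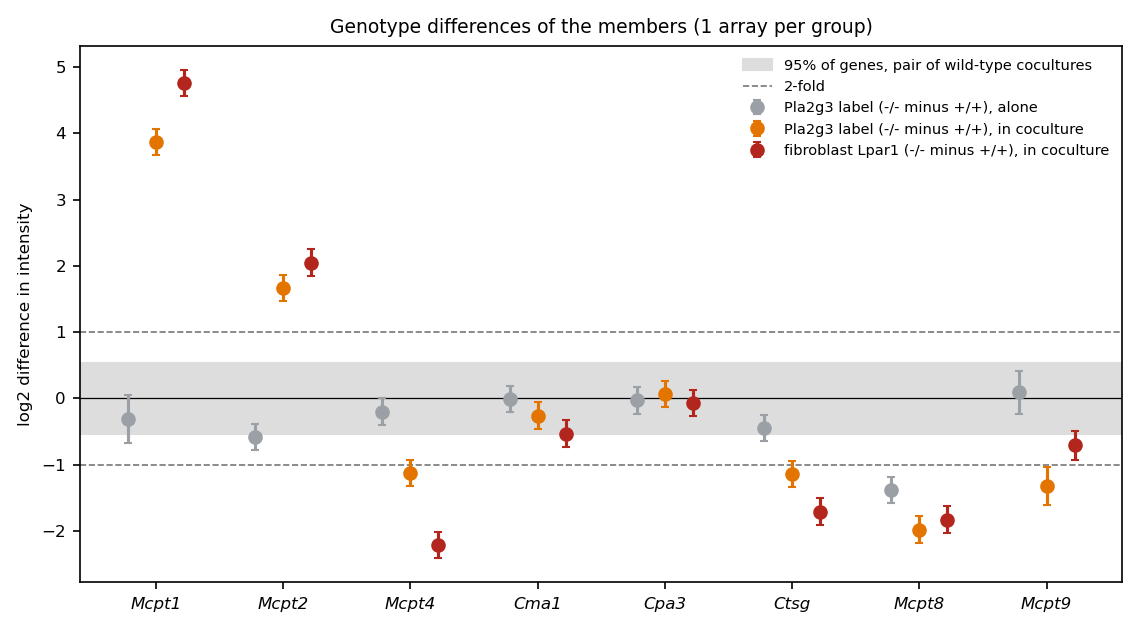
Log2 difference by genotype (y axis) for the 8 members (x axis): the Pla2g3 label without fibroblasts (grey), the Pla2g3 label in coculture (orange) and fibroblast Lpar1 in coculture (red), with bars for the scanner error, a grey band of 0.54 either side of 0 and dashed lines at 2-fold. Orange and red points are above 2-fold for Mcpt1 and Mcpt2 and below it for Mcpt4, Mcpt8 and Ctsg, and of the grey points only that of Mcpt8 (-1.38) passes 2-fold.

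Between the wild-type cocultures all 8 members were within 2-fold, against 0.803% of 24025 genes higher and 0.166% lower. The widest differences were 0.46 for Ctsg, -0.39 for Mcpt1 and 0.33 for Mcpt9. The difference between both coculture effects, labelled Pla2g3-/- minus Pla2g3+/+, in which the slide cancels, was 18.1-fold upward for Mcpt1 and 4.76-fold for Mcpt2 and 2.64-fold downward for Mcpt9. It was -0.93 for Mcpt4, -0.68 for Ctsg, -0.60 for Mcpt8, -0.26 for Cma1 and 0.10 for Cpa3. This made 2 higher and 1 lower of 8, against 10.1% and 11.6% of 21825 genes. By the label, Mcpt8 differed by -1.98 with and -1.38 without fibroblasts, and Mcpt4 by -1.13 and -0.20. Whether these effects differ was not tested.

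For the members that spanned at least 2-fold, the genes with the most similar pattern over the 6 arrays were named. They were ranked by the root mean square of the difference after centring. The 19746 genes ranked had a probe well above background on every array, which need not be the probe whose values were used. Mcpt1 had no close match: Timp1, an inhibitor of metalloproteinases, Sox4, a transcription factor, and Ltbp1, which binds latent transforming growth factor beta, were nearest at 1.35, 1.42 and 1.44. The Ltbp1 probe used read -9.57 and -10.01 without fibroblasts. The lowest values marked well above background on those arrays were -8.01 and -8.11, so the place of Ltbp1 rests partly on background-level signal. Mcpt2 was matched by CJ206177 (0.18), Inava (0.35) and AA414992 (0.38), of which CJ206177 and AA414992 have probes alike at 58 of 60 bases. Nearest to Mcpt4 were Pxdc1 (0.17), a probe without a gene name (0.22) and Klf10 (0.24), a zinc finger factor known as inducible by transforming growth factor beta. Nearest to Mcpt8 were Rasef (0.22), Rgs3 (0.27) and Qpctl (0.28), and to Ctsg Gorasp2 (0.13), H2-Q5 (0.15) and the amino acid transporter Slc7a5 (0.16). Nearest to the dim Mcpt9 probe were ENSMUST00000216151.1 (0.08), Magi1 (0.09) and Magi3 (0.11). The ranking describes these 6 arrays and has no test.

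The tryptases, trypsin-like proteases of the same granules, included 3 genes, Tpsab1, Tpsb2 and Tpsg1, that had the order of Mcpt4 over the coculture comparisons. Of 4 measured, 3 were higher and 1 lower in coculture of Pla2g3+/+ cells, 3 higher in that labelled Pla2g3-/- and 2 on Lpar1-/- fibroblasts, against 12.8%, 11.4% and 13.0% of all genes higher. All 4 were lower under the Pla2g3-/- label in coculture (median -2.06), against 10.4% of all genes, and 3 of 4 were lower by the label without fibroblasts (median -1.40), against 1.58%. Tpsab1 was 210-fold, 55.2-fold and 10.1-fold higher in those cocultures. On Lpar1-/- against Lpar1+/+ fibroblasts Tpsab1, Tpsg1 and Tpsb2 differed by -4.57, -3.36 and -1.22, whereas Prss34 was higher at 1.17.

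Genes that act on the stored proteases moved in a mixed way. Ctsc, which encodes the cathepsin C that activates the serine proteases, differed by -0.77, -1.31 and -1.64 in the 3 cocultures in the order used above. Ctsc was 2.0-fold lower on Lpar1-/- than on Lpar1+/+ fibroblasts. Among 7 such processing genes, 1 was higher and 1 lower by the Pla2g3 label in coculture, against 9.1% and 10.4% of all genes, Ctse by 34.5-fold and Ctss by 12.4-fold. By the label without fibroblasts Ctse was already 25.3-fold higher, Ctss 2.75-fold lower and Ctsl 2.11-fold lower. With coculture on wild-type fibroblasts Ctse differed by -0.08 in Pla2g3+/+ cells and by 0.37 in cells labelled Pla2g3-/-. Srgn, the serglycin core protein on which chymases and Cpa3 are packed, lay within 1.19-fold in every comparison. Of 20 genes for serglycin and its sulfated chains, 6 were higher and 1 lower in the first coculture (median 0.54), against 12.8% and 7.52% of all genes, among them Xylt1 (6.62-fold higher), which starts the chains, and Chsy1 (4.90-fold lower), which extends chondroitin sulfate. Inhibitors were mostly within 2-fold, as were most of all genes (12.8% higher and 7.52% lower in the first coculture). Serpina3g was 38.6-fold, 35.2-fold and 24.8-fold lower in the 3 cocultures, and Lxn, latexin, an inhibitor of carboxypeptidases including Cpa3, was 2.94-fold higher in the first and within 2-fold in the others. Of 11 other metallocarboxypeptidases measured, 0 were higher and 3 lower under the Pla2g3-/- label in coculture (median -0.22), against 9.1% and 10.4% of all genes, where Cpa3 differed by 0.07.

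Transcription factors of mast cells and signals known to induce mucosal chymases were also counted. Of 12 factors, 4 were higher and 0 lower in each genotype comparison in coculture (medians 0.76 by the label and 0.64 by fibroblast Lpar1), against 9.1% higher and 10.4% lower of all genes for the label and 11.3% and 8.82% for fibroblast Lpar1. Under the Pla2g3-/- label Ikzf2 was 3.79-fold, Lyl1 2.98-fold and Stat5a 2.88-fold higher, and on Lpar1-/- fibroblasts they were 3.39-fold, 3.20-fold and 2.38-fold higher. Against cells alone they differed by -1.07, -1.03 and -0.21 in the Pla2g3+/+ coculture and by 0.81, 0.46 and 1.28 in that labelled Pla2g3-/-. For Ikzf2 and Lyl1 the difference by the label thus includes a fall in the Pla2g3+/+ coculture. In the genotype comparisons Mitf, a regulator of mast cell protease genes, differed by 0.07 and 0.01 and Gata2 by 0.77 and 0.69. Of 18 signal genes, 6 were higher in each, with 0 lower under the Pla2g3-/- label and 2 lower on Lpar1-/- fibroblasts (medians 0.25 and 0.12), against the same shares of all genes. Itgae, the integrin alpha chain of intraepithelial mast cells, differed by 4.66 and 4.26, and Itgb6, part of an integrin that activates latent transforming growth factor beta, by 2.02 and 2.05. Both were dim in the wild-type cocultures, Itgae at -7.15 and -6.77 and Itgb6 at -5.83 and -5.57. Without fibroblasts they read higher than that, Itgae at -4.74 and -4.7 and Itgb6 at -4.15 and -4.63. Il9r, the interleukin-9 receptor, differed by 1.78 and 0.02, Tgfb3 by 0.60 and 2.16, and Tgfb1 by -0.52 and -1.07. Smad3, a transducer of that factor, was 7.38-fold, 10.2-fold and 6.11-fold higher in the 3 cocultures.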

How the data were processed

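Messenger RNA was measured on 6 single-colour Agilent arrays, 1 per group. Spot intensity is the authors' output of Agilent Feature Extraction (version 12.1.1.1 per the file headers), which removed spatial trend and background and gave dim spots a surrogate value, so low intensities rest partly on that value. The authors' deposited value table holds a linear signal equal to this intensity over 1 constant per array. Scanner marks for background, saturation and outliers were used as deposited. Here log2 processed intensity was taken minus the array's 75th percentile over 43020 noncontrol spots, and 84 to 115 outlier spots per array were dropped. Probes were named by accession through RefSeq genes of GRCm38.p6. Each member has 1 probe, and the brightest probe stood for any other gene. A gene counted as well above background on an array where any of its probes was. Genes were compared where at least 1 array was well above background. Where the other array was not, the difference is a bound. The scripts were tested on simulated data.

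All members are described. Beyond them the text names up to 3 genes per list with the largest difference past 2-fold, and the 3 nearest genes per member. Marker genes, neighbours of the cluster and Srgn, Ctsc, Lxn, Mitf, Gata2, Stat5a, Il9r, Tgfb1, Tgfb3, Smad3 and Gzmc were named for their roles after their values were seen. The members, the 15 gene lists and the rules were chosen with earlier results of these data known. Other settings were normexp (limma 3.58.1, R 4.3.3, offset 50), quantile normalization, median or detected-probe scaling, other filters, the mean of probes, outliers kept, the value table and the other wild-type array. Upstream stretches came from RefSeq and were aligned with Biopython 1.88.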

Additional observations from a re-analysis of the deposited data

Results flagged for a closer look

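Some members differed in opposite directions in parallel comparisons, and none of these differences between comparisons was tested, since each rests on 1 array per group. Mcpt8 differed by 0.57 with coculture of Pla2g3+/+ cells and by -0.02 with that of cells labelled Pla2g3-/-, and Mcpt9 by 1.17 and -0.23. By the Pla2g3 label, Mcpt1 differed by -0.31 without fibroblasts and by 3.87 in coculture, Mcpt2 by -0.58 and 1.67, Mcpt9 by 0.09 and -1.32, and Cpa3 by -0.03 and 0.07. For Cpa3 both values, and for Mcpt8, Mcpt1 and Mcpt9 the smaller value of each pair, lay within 0.54, the range of 95% of genes between the wild-type cocultures.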

How the results depend on the processing

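Of the alternative values for 28 member differences past 2-fold, 292 of 298 stayed past it in the same direction, and 4 of 374 alternatives to smaller differences passed it. Several settings could not move a member. Each member has 1 probe, was well above background on every array and was not an outlier, and the value table is the same intensity over a constant. The mean of probes, the filters, the kept outliers and the value table thus tested nothing for the members, and the counts given here include these fixed outcomes. Mcpt9 under the Pla2g3 label in coculture turned to 0.01 with normexp. The number of members lower in the difference between coculture effects was 0 with normexp and 2 each with median scaling, with the other wild-type array and with scaling to Kit, Fcer1a and Ms4a2, an alternative chosen after seeing the data. The number lower in coculture of Pla2g3+/+ cells was 1 with median scaling, namely Ctsg at -1.18. The causes were not tested. The other 163 of 168 counts stayed within 1.5 times the main count. Median scaling shifted the median of all genes by -0.27, -0.39 and -0.36 in the 3 cocultures and by -0.18 for fibroblast Lpar1. It gave 1961 genes higher and 2600 lower for coculture of Pla2g3+/+ cells (main 2906 and 1700), 1400 and 3282 under the Pla2g3-/- label (main 2547 and 1631) 1734 and 3380 on Lpar1-/- fibroblasts (main 3087 and 1704) and 2194 and 2845 by fibroblast Lpar1 (main 2770 and 2164). For the 3 cocultures quantile normalization gave 2142 and 2267, 1893 and 1873, and 2237 and 2190, and normexp 1409 and 1037, 1115 and 914, and 1349 and 1222. By the Pla2g3 label in coculture normexp gave 1339 and 1210 (main 2049 and 2345), and scaling to the 3 mast cell markers 1677 and 2963; by fibroblast Lpar1 normexp gave 1592 and 1452, and by the label without fibroblasts 23 and 94 (main 81 and 344). Signal over background limits Mcpt9 and, without fibroblasts, Mcpt1. No paired analysis was possible because each group has 1 array.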
